A study of Mus musculus with 8 samples.

Results

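The clustered protocadherins were examined in RNA of dissected striatum from both genotypes, WT and 16p11.2+/-. They were taken as every gene in the table whose symbol belongs to the Pcdha, Pcdhb or Pcdhg series, which gave 58 of 55032 genes. Female mice of the C57BL/6 strain were used at postnatal day 60, with 4 WT mice, named WT-1015, WT-1041, WT-1061 and WT-1063, and 4 16p11.2+/- mice, whose names begin with DF (DF-1018, DF-1037, DF-1059 and DF-1062). The 16p11.2+/- mice carry 1 copy of a segment of chromosome 7 that corresponds to human 16p11.2, in all cells of the body, and the WT mice carry both copies. Each mouse gave 1 library from whole dissected striatum, so p-values measure the spread between separate mice. In such tissue, fewer cells of a type and less RNA per cell cannot be told apart.

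Clustered protocadherins are adhesion proteins of the neuronal surface that bind the identical protein on another cell. Each neuron switches on its own small set of them by promoter choice, with CTCF and cohesin bringing a distal enhancer to the chosen promoter, while the C-type genes are used more broadly. They are known for self-avoidance of dendrites, for neuron survival and for the spacing of axons, and the beta cluster codes for proteins with no shared cytoplasmic tail.

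The 58 genes lie on the forward strand of chromosome 18 in mouse build GRCm38, according to GENCODE M21. The alpha locus (14 genes) spans 36930184 to 37187661, the beta locus (22 genes) 37264938 to 37524479 and the gamma locus (22 genes) 37661793 to 37841873. By kind, they are 12 alpha genes, 22 beta genes, 12 gamma A genes, 7 gamma B genes and 5 C-type genes. The C-type genes are Pcdhac1 and Pcdhac2 at the end of the alpha locus and Pcdhgc3, Pcdhgc4 and Pcdhgc5 at the end of the gamma locus. Symbol Pcdha11 names 2 rows with different gene IDs, ENSMUSG00000007440 and ENSMUSG00000102206, which were kept apart.

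Genes of the alpha and gamma loci share exons, which limits what a count can say about 1 of them. Every alpha locus gene joins its own variable exon to a constant part at the 3' end, and 2860 or more bases of each are annotated as exon of the other alpha locus genes too. In Pcdhac2 the constant part is 2860 of 5888 exon bases, and in Pcdhgc3 it is 2119 of 5499. Beta genes are single genes with no constant part, and apart from Pcdhb12, Pcdhb21 and Pcdhb22 none overlaps an exon of another gene in the annotation. Some beta genes nevertheless hold stretches of identical sequence, and the share of 100-base stretches found in another member was 7.73% in Pcdhb21, 5.39% in Pcdhb22, 2.24% in Pcdhb6 and at most 2.03% in the other beta genes. The counting rule for a read inside a constant part is not given in the sources used here. Levels are therefore given as deposited FPKM, which divides by the whole exon length, and also per kilobase of own exon. The latter divides the whole count of the gene by its exon length shared with no other gene on either strand, scaled to the library total. It overstates a gene if reads in its shared exons were counted, and orders that rest on it depend on this unknown rule.

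Pcdha4 has 404 bases of its own out of 5768 and a mean of 3.63 counts per mouse. Pcdha11 (ENSMUSG00000102206) has 1268 bases of its own and a mean of 2.25 counts. Pcdhga10 has 0 bases of its own, since its 2613 variable bases lie within the antisense gene Gm26672, and a mean of 4.75 counts. These 3 genes had the fewest counts, and Pcdhga10 and Pcdha4 have the least unshared sequence of all members. Little unshared sequence did not always go with few counts. Pcdhb12, with 1107 bases of its own, had a mean of 35 counts, and Pcdhga11, with 1256, a mean of 161.75. Pcdhb1 shares no exon sequence and had a mean of 8.25 counts. Pcdha4, Pcdha11 (ENSMUSG00000102206), Pcdhga10 and Pcdhb1 did not have enough counts to be tested by the filter of edgeR, which left 54 of 58.

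**Figure D1:**
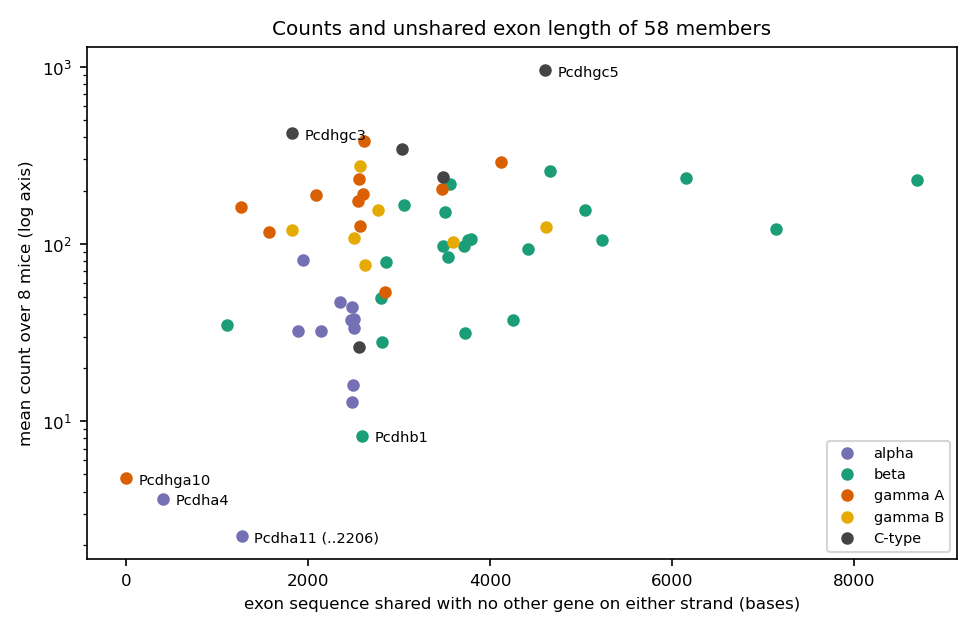
Mean count over 8 mice (log axis) against the exon sequence that each of the 58 members shares with no other gene on either strand, in bases. Points are genes, coloured by kind. Pcdhga10, Pcdha4 and Pcdha11 (ENSMUSG00000102206) sit at the lower left with 0, 404 and 1268 own bases, and Pcdhgc5 is at the top with a mean count of 956.5.

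Library totals ran from 15125051 to 16523429 counts. Genes of the deleted segment followed the labels, with Taok2 at 17.0 to 18.8 FPKM in WT mice and 8.91 to 9.82 in 16p11.2+/- mice. Within a group, the chi-square of gene counts per degree of freedom was 8.07 to 56.0 between any pair of libraries, and each was kept as a sample of its own. The dissections differed in makeup. Summed markers of medium spiny neurons, the main neurons of striatum, were at 3366 to 5582 CPM (counts scaled to the library total) in WT mice, at 4868 and 5163 in DF-1059 and DF-1018, and at 1246 and 935 in DF-1037 and DF-1062, where all 9 markers were still detected. Summed thalamus markers were at 96.7 to 138 CPM in WT-1015, WT-1041 and WT-1061 and in DF-1059, and at 593 to 1101 in the other 4 mice. Summed choroid plexus markers reached 5876 CPM in WT-1063 and were at 28.6 to 661 in the other 7, with Kcnj13 at 0 in at least 1 mouse. Summed markers of cortical glutamatergic neurons (61.5 to 759 CPM), astrocytes, microglia and endothelium overlapped between groups. Summed oligodendrocyte markers were at 11278 to 12975 CPM in WT mice and 7014 to 9878 CPM in 16p11.2+/- mice, with 5 of the 6 at an unadjusted p under 0.05 with edgeR (4.32% of all tested genes) and 0 called after adjustment over all genes (0.109% of all tested genes). The members were also fitted without DF-1037 and DF-1062 and with the scores of medium spiny neurons, thalamus or cortical neurons as covariates, and the part of the other marker lists in the results was not tested.

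Clustered protocadherin transcripts were a small part of the striatal RNA, at 6402 to 9285 counts per mouse, or 0.0417% to 0.0609% of all counts. The lowest total was in DF-1037 and the highest in DF-1018, so the WT mice lay between them. Of the summed FPKM of the 58 genes, beta genes took a median of 37.2% over the 8 mice, gamma A genes 26.2%, C-type genes 20.4%, gamma B genes 12.4% and alpha genes 4.28%. Per kilobase of own exon the medians were 23.0% for beta, 32.4% for gamma A, 24.7% for C-type, 13.7% for gamma B and 6.46% for alpha. The place of the beta genes as the largest share thus depended on the length used, and the alpha genes were the smallest share by both.

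The highest single level was that of a C-type gene. Pcdhgc5 had the highest mean FPKM of all 58 genes, at 7.97, and ranged from 5.24 in DF-1062 to 10.8 in WT-1015. Pcdhgc3 had a mean of 4.84 FPKM, with 4.10 to 5.73 over the 8 mice, and Pcdhac2 a mean of 3.70, with 2.82 to 4.70. Per kilobase of own exon the order of the first pair changed, with Pcdhgc3 at 14.6 (12.4 to 17.3) and Pcdhgc5 at 13.2 (8.67 to 17.9), and these ranges overlap. This order rests on leaving out antisense overlap, which takes 1559 exon bases from Pcdhgc3 and 0 from Pcdhgc5. By the same strand alone Pcdhgc3 has 3380 own bases in place of 1821, and its mean level then falls below that of Pcdhgc5. Pcdhgc4, which is needed for the survival of interneurons, was at a mean of 2.67 FPKM. Pcdhac1 was the low member of the group at 0.307 FPKM and the level of every other C-type gene was above it in every mouse.

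Alpha genes were low throughout. Their 12 mean FPKM values had a median of 0.387 and reached at most 0.965, in Pcdha12. Pcdha5 followed at 0.574 and Pcdha9 at 0.520, with ranges that overlap each other. Pcdhac2, which lies in the same locus and carries the same constant part, was at a level above every alpha gene in every mouse. Per kilobase of own exon the median of the alpha genes was 0.947 and that of Pcdha12 was 2.65.

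Beta genes had a median of 1.67 FPKM, with Pcdhb20 (3.89), Pcdhb17 (3.51) and Pcdhb9 (3.42) at the top and Pcdhb1 (0.202) at the bottom. Gamma A genes had a median of 2.34 FPKM, led by Pcdhga6 (5.10), Pcdhga7 (2.82) and Pcdhga12 (2.77). Gamma B genes had a median of 1.48 FPKM, led by Pcdhgb6 (3.71), Pcdhgb2 (2.01) and Pcdhgb7 (1.61). By FPKM, 1 gene stood above the rest of its kind in every mouse in alpha, gamma A and gamma B. Pcdha12 made up a median of 19.5% of the summed FPKM of the 12 alpha genes (15.7% to 28.6% over the mice). Pcdhgc5 made up 41.8% of that of the 5 C-type genes (25.2% to 53.3%), but was below Pcdhgc4 in DF-1062. Pcdhgb6 made up a median of 31.8% of the summed FPKM of its 7 genes (27.2% to 34.8% over the mice), and Pcdhga6 19.3% of that of its 12 genes (14.9% to 22.8%). Per kilobase of own exon Pcdhga6 was at 9.23 (5.82 to 13.8) and Pcdhga11, the next gamma A gene on this scale, at 8.15 (6.02 to 10.2). Here Pcdhga11 was above Pcdhga6 in WT-1063 (7.29 against 5.82), DF-1062 (7.28 against 6.83) and DF-1037 (6.018 against 6.007). This closeness depends on leaving out antisense overlap, which takes 1381 exon bases from Pcdhga11. Among the 22 beta genes Pcdhb20 held 10.6% (8.36% to 12.1%). The kinds differ in their number of genes, so these shares do not show which kind was spread more evenly.

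**Figure D2:**
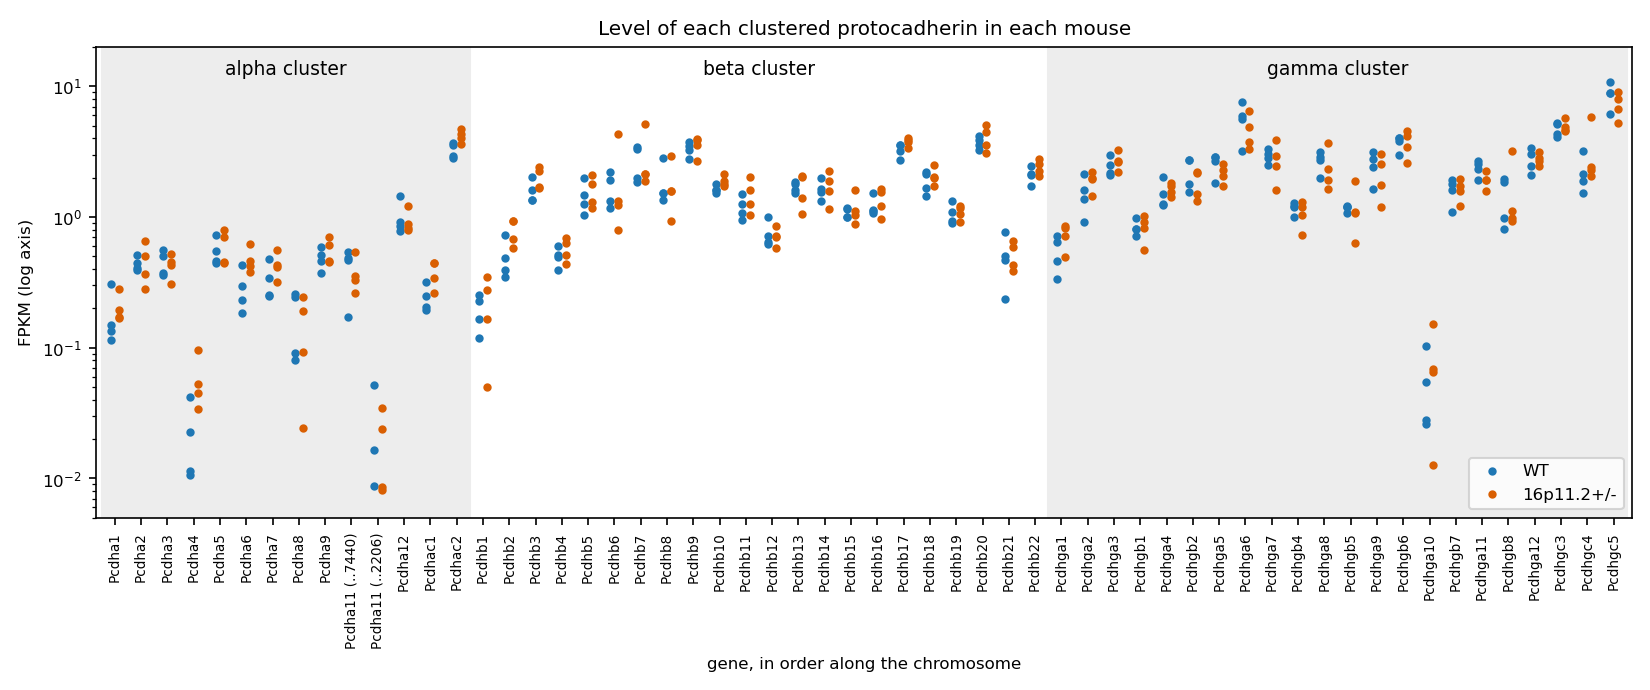
FPKM (log axis) of each of the 58 clustered protocadherins in each of the 4 WT mice (blue) and 4 16p11.2+/- mice (orange), with genes in chromosomal order. Alpha genes sit below Pcdhac2 in every mouse, Pcdhgc5 is the highest, and in no gene do the groups separate. The value of 0 for Pcdha11 (ENSMUSG00000102206) in WT-1061 cannot be drawn on this axis.

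The first question was whether any of these genes differed between genotypes. None of the 54 genes tested had an adjusted p under 0.05 with edgeR, where 20 of 18294 genes (0.109%) did. The lowest adjusted p of a member was 0.859, and DESeq2 and limma-voom also called 0 members. At an unadjusted p under 0.05 there were 3 of 54 with edgeR, 2 with DESeq2 and 4 with limma-voom. Over all 18294 tested genes the same fits gave 790 (4.32%), 853 and 782. The 3 members with edgeR were all higher in 16p11.2+/- mice and 0 were lower, where 1.95% of all tested genes were higher and 2.37% lower at this p. In 0 of 54 genes did the FPKM values of the 2 groups fail to overlap, against 2.83% of all tested genes. In 37 of 54 genes the log2 fold change was smaller than its own standard error, and the median standard error was 0.23, which limits the size of change that could be seen.

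The log2 fold changes (16p11.2+/- over WT) of the 54 genes ran from -0.33 in Pcdhga11 to 0.69 in Pcdha6, with a median of 0.08, where the median of all tested genes was -0.01. Of the 54, 21 were negative (51.8% of all tested genes were negative). The kinds were not alike in this count, with 4 of 10 alpha, 3 of 21 beta, 7 of 11 gamma A, 6 of 7 gamma B and 1 of 5 C-type genes negative. With library totals in place of TMM factors the gamma B count was 4 of 7 and the others differed by at most 1. Single mice moved these counts. Without DF-1018, 32 of 54 genes were negative. Without the 2 mice lowest in medium spiny neuron markers, DF-1037 and DF-1062, 12 of 55 were negative, including 2 of 11 gamma A genes and 1 of 7 gamma B genes.

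**Figure D3:**
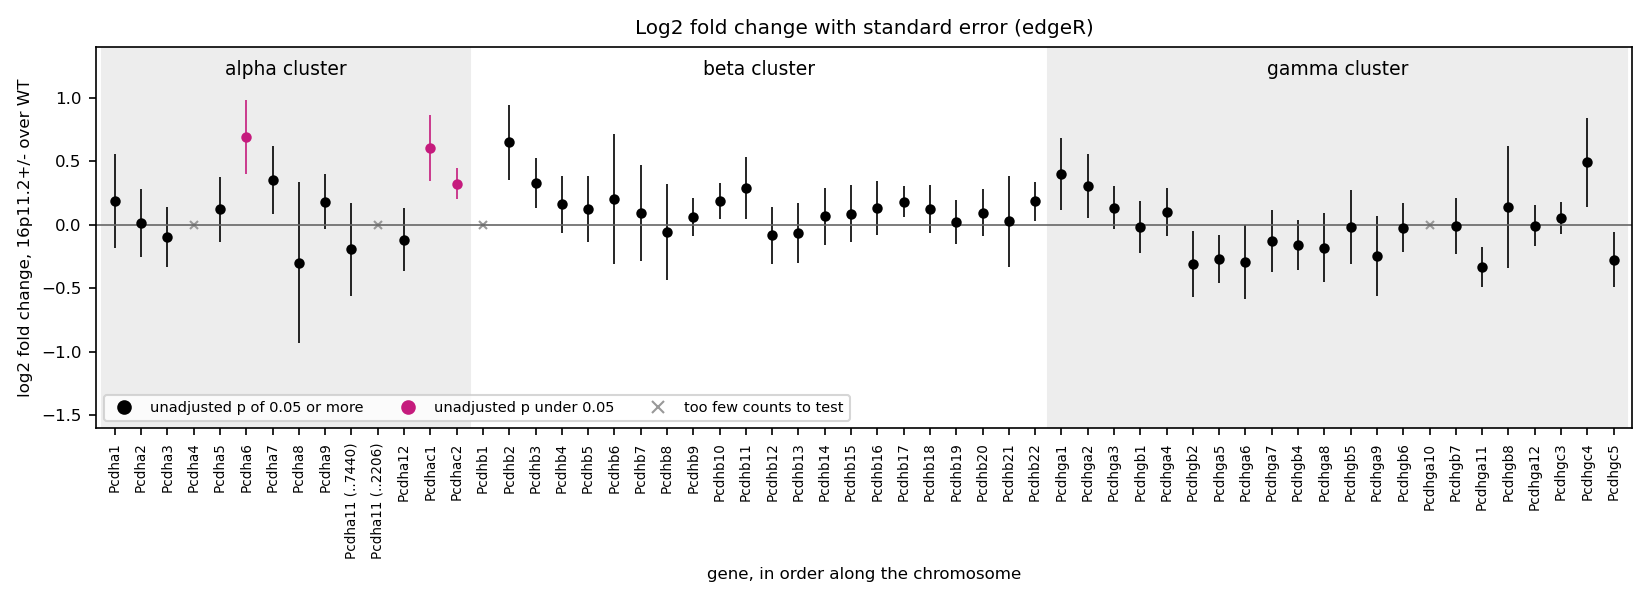
Log2 fold change (16p11.2+/- over WT) of each member with its standard error from edgeR, in chromosomal order, and crosses for the 4 genes with too few counts. Most bars reach 0, and the 3 genes in magenta (Pcdha6, Pcdhac1 and Pcdhac2) have an unadjusted p under 0.05 and an adjusted p of 0.859.

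The 3 genes with an unadjusted p under 0.05 all lie in the alpha locus and were all higher in 16p11.2+/- mice, and none passed the adjustment. Pcdhac2 was at 3.55, 2.82, 3.71 and 2.95 FPKM in WT-1015, WT-1041, WT-1061 and WT-1063, and at 4.01, 3.60, 4.29 and 4.70 in DF-1018, DF-1037, DF-1059 and DF-1062. The groups overlapped only through DF-1037 and WT-1061. The log2 fold change of Pcdhac2 was 0.32 with a standard error of 0.12 (edgeR unadjusted p = 0.0275, adjusted p = 0.859, n = 4 per group), and the exact two-sided permutation test of its FPKM gave p = 0.0571, where the smallest p that 4 against 4 allows is 0.0286. Pcdhac2 is the C-type gene that serotonergic axons depend on for even spacing in their target fields.

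Pcdhac1, the other C-type gene of the locus, was at 0.317, 0.205, 0.248 and 0.194 FPKM in WT-1015, WT-1041, WT-1061 and WT-1063, and at 0.339, 0.445, 0.261 and 0.447 in DF-1018, DF-1037, DF-1059 and DF-1062. WT-1015 exceeded DF-1059, so the groups overlapped. The log2 fold change of Pcdhac1 was 0.60 with a standard error of 0.26 (edgeR unadjusted p = 0.0471), and the exact permutation p was 0.0571. Pcdha6 was at 0.431, 0.231, 0.296 and 0.184 FPKM in the WT mice and at 0.379, 0.461, 0.424 and 0.620 in the 16p11.2+/- mice, in the same order. WT-1015 lay inside the range of the 16p11.2+/- mice. The log2 fold change of Pcdha6 was 0.69 with a standard error of 0.29 (edgeR unadjusted p = 0.0432), and the exact permutation p was 0.0857.

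The highest 2 values of Pcdhac1 and of Pcdha6 were in DF-1037 and DF-1062, which had the lowest medium spiny neuron markers. Without these mice the log2 fold change was 0.36 for Pcdhac2, 0.32 for Pcdhac1 and 0.50 for Pcdha6, and only Pcdhac2 kept an unadjusted p under 0.05 with edgeR. Leaving out WT-1041 or DF-1062 brought the number of such members from 3 to 0, leaving out WT-1061 brought it to 1, and leaving out WT-1015 brought it to 5. Over all tested genes the number moved too, from 790 of 18294 with all mice. It was 641 of 18675 without WT-1041, 476 of 18638 without DF-1062, 562 of 18679 without WT-1061 and 461 of 18673 without WT-1015. The members changed as well. Without WT-1063 they were Pcdhga5 and Pcdhga11 (1530 of 18641 over all tested genes), and without DF-1059 Pcdhac1 and Pcdhga11 (946 of 18690). With all mice, Pcdhga11 had a log2 fold change of -0.33 (edgeR unadjusted p = 0.0639) and an exact permutation p of 0.0571. At the level of the alpha genes as a kind, the median log2 fold change was 0.07, with 6 of 10 positive.

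The other C-type genes lie in the gamma locus. Pcdhgc3 was at 4.10, 4.31, 5.27 and 5.20 FPKM in WT-1015, WT-1041, WT-1061 and WT-1063, and at 5.73, 4.92, 4.63 and 4.58 in DF-1018, DF-1037, DF-1059 and DF-1062, with a log2 fold change of 0.05 (standard error 0.13). Pcdhgc5 was at 10.8, 8.92, 8.84 and 6.12 FPKM in the WT mice and at 8.01, 6.75, 9.03 and 5.24 in the 16p11.2+/- mice, with a log2 fold change of -0.27 (standard error 0.22). The ranges of the groups overlapped in both genes. Pcdhgc4 was at 1.54, 1.89, 2.13 and 3.18 FPKM in the WT mice and at 2.05, 2.42, 2.29 and 5.85 in the 16p11.2+/- mice, with a log2 fold change of 0.49 (standard error 0.35). The value of DF-1062 was the highest of the 8, and without DF-1037 and DF-1062 the log2 fold change of Pcdhgc4 was -0.0018.

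Of the alpha genes with the highest levels, the log2 fold change was -0.12 in Pcdha12, 0.12 in Pcdha5 and 0.18 in Pcdha9, with standard errors of 0.25, 0.26 and 0.22. Pcdha12 was at 0.778 to 1.44 FPKM in WT mice and 0.795 to 1.22 in 16p11.2+/- mice, so the range of the 16p11.2+/- mice lay inside that of the WT mice. Among the beta genes, it was 0.10 in Pcdhb20, 0.18 in Pcdhb17 and 0.06 in Pcdhb9, with standard errors of 0.18, 0.12 and 0.15. Pcdhb17 was at 3.58, 3.18, 3.56 and 2.72 FPKM in WT-1015, WT-1041, WT-1061 and WT-1063 and at 3.87, 3.38, 3.74 and 4.04 in DF-1018, DF-1037, DF-1059 and DF-1062, and only DF-1037 lay within the WT range. The exact permutation p of Pcdhb17 was 0.114.

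Pcdhga6, the highest gamma A gene, was at 7.61, 5.60, 5.90 and 3.22 FPKM in WT-1015, WT-1041, WT-1061 and WT-1063, and at 6.43, 3.32, 4.92 and 3.77 in DF-1018, DF-1037, DF-1059 and DF-1062. Its 3 lowest values were in WT-1063 and DF-1037 and DF-1062, which were also the 3 mice with the highest thalamus markers and the 3 lowest in medium spiny neuron markers. The log2 fold change of Pcdhga6 was -0.29 (standard error 0.29), and it was 0.03 without DF-1037 and DF-1062. Pcdhgb2 showed the same 3 mice as the lowest, at 1.56, 1.33 and 1.50 FPKM against 1.80 to 2.75 in the other 5 mice, with a log2 fold change of -0.31 (standard error 0.26). These mice were also the lowest 3 in Pcdhgb6 (2.59 to 3.46 FPKM against 3.81 to 4.55) and Pcdhgc5 (5.24 to 6.75 against 8.01 to 10.8). They were not the lowest 3 in Pcdhga7, Pcdhga12 or Pcdhgb7. Members and tested genes with this pattern were not counted, and the part of the tissue makeup in it was not tested. Pcdhga7, Pcdhga12, Pcdhgb6 and Pcdhgb7 had log2 fold changes of -0.13, -0.01, -0.02 and -0.01, each smaller than its standard error.

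The summed counts of each kind overlapped between genotypes. In 16p11.2+/- mice the mean log2 CPM of the sum differed from that of WT mice by 0.09 for alpha, 0.11 for beta, -0.11 for gamma A, -0.11 for gamma B and 0.0029 for C-type genes. The SD of the 4 mice of a group was between 0.10 and 0.43, and each difference was smaller than the SD of either group. Each difference also turned its sign with 1 mouse left out. It was -0.038 for alpha without WT-1063, -0.022 for beta without DF-1018, and 0.011 for gamma A and 0.063 for gamma B without DF-1037, and for C-type genes it ran from -0.054 without WT-1063 to 0.053 without WT-1015. Summed gamma B counts ran from 40.6 CPM in DF-1037 to 82.8 CPM in DF-1018, while the WT mice were between 55.9 and 67.6 CPM. The median of the C-type log2 fold changes, 0.32, stood above the difference of their sum, in which Pcdhgc5, with a negative log2 fold change, had the most counts.

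**Figure D4:**
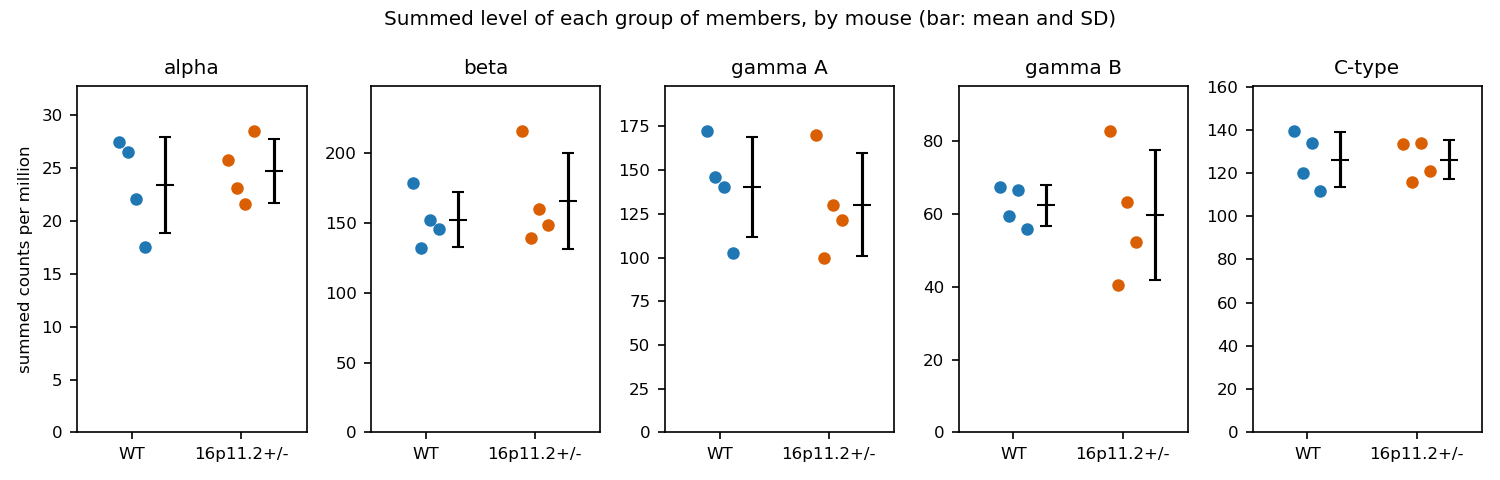
Summed CPM of alpha, beta, gamma A, gamma B and C-type genes in each mouse, with the mean and SD of each group of 4. The groups overlap in each panel, and the highest beta and gamma B sums and the lowest gamma B sum are all in 16p11.2+/- mice.

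Members also varied between mice of the same genotype. DF-1018 had the highest FPKM of the 8 in 22 of 54 genes, among them 14 of 21 beta genes and 0 of 10 alpha genes. DF-1037 had the lowest in 19 of 54 genes, among them 5 of 7 gamma B genes. The same counts over all tested genes were not made. The SD of log2 CPM within groups had a median of 0.35 over the members and of 0.28 over tested genes of like level. Of the 54 members, 33 were above the median of their own level (31 with library totals), around which genes of like level split evenly by construction.

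A few beta and gamma B genes, which were named after their values were seen, stood out in the same mice. Pcdhb6 was at 2.22, 1.18, 1.32 and 1.93 FPKM in WT-1015, WT-1041, WT-1061 and WT-1063, and at 4.32, 0.798, 1.23 and 1.34 in DF-1018, DF-1037, DF-1059 and DF-1062. Pcdhb7 was at 3.42, 1.86, 2.00 and 3.30 FPKM in the WT mice and at 5.17, 2.14, 1.90 and 2.14 in the 16p11.2+/- mice. Pcdhgb8 was at 1.86, 0.990, 0.807 and 1.97 FPKM in the WT mice and at 3.21, 0.932, 0.986 and 1.11 in the 16p11.2+/- mice. GENCODE M21 annotates Pcdhgb8 as a polymorphic pseudogene and every other member as protein-coding. In all 3 genes the highest mouse was DF-1018, WT-1015 and WT-1063 came next, and the other 5 mice were lower, so the mice of 1 genotype fell on both sides. These 5 mice were at 0.798 to 1.34 FPKM in Pcdhb6, 1.86 to 2.14 in Pcdhb7 and 0.807 to 1.11 in Pcdhgb8. DF-1018 exceeded the median of the 8 mice by 3.25 times in Pcdhb6, 2.41 times in Pcdhb7 and 3.05 times in Pcdhgb8.

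Pcdhb8, the neighbour of Pcdhb7, was at 2.83 FPKM in WT-1015 and 2.96 in DF-1018, against 0.935 to 1.58 in the other 6 mice, and here WT-1063 was not set apart. Pcdhb9, the next gene along the locus, ran the other way, with 2.77, 3.26 and 2.66 FPKM in WT-1015 and WT-1063 and DF-1018, and 3.48 to 3.99 in the other 5 mice. Of the 54 genes, 3 had these 3 mice as the highest and 2, Pcdhb9 and Pcdha9, had them as the lowest. The 3 mice were picked from the values of these same genes. The same count over all tested genes was not made, so nothing shows whether the pattern is particular to the members. Medium spiny neuron markers were at 5077, 3366 and 5163 CPM in these 3 mice and thalamus markers at 117, 1076 and 593 CPM, and the part of the tissue makeup in this pattern was not tested. Pcdhb6, Pcdhb7, Pcdhb8 and Pcdhb9 overlap no annotated exon of another gene, but Pcdhb6 holds 100-base stretches that also occur in Pcdhb8 or Pcdhb10 (2.24% of its stretches), and Pcdhb7 and Pcdhb9 hold some in common. In Pcdhgb8, 47.2% of the stretches occur in other members, mostly but not only through the constant part (2116 of its 4615 exon bases).

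**Figure D5:**
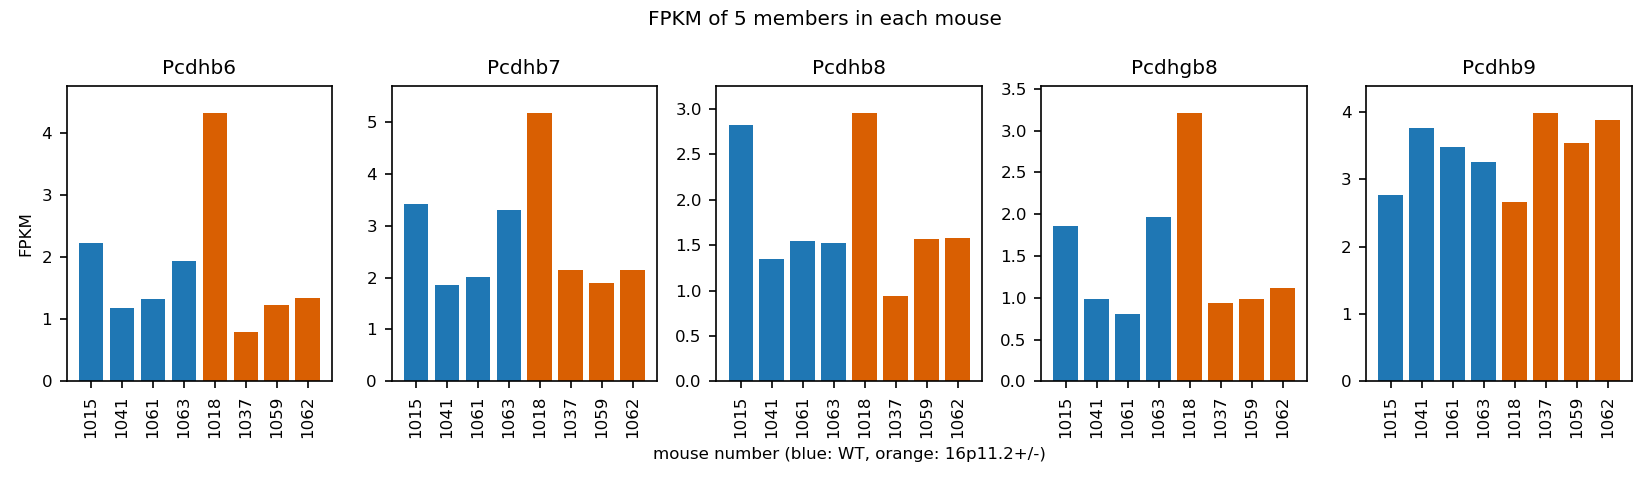
FPKM of Pcdhb6, Pcdhb7, Pcdhb8, Pcdhgb8 and Pcdhb9 in each mouse (bars, from 0; blue WT, orange 16p11.2+/-). DF-1018 is the highest in the first 4 genes, with WT-1015 in the second or the third place, and DF-1018 and WT-1015 are the lowest in Pcdhb9.

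Genes that control or work with the clusters were compared in the same fit. Of 22 chromatin regulators, 22 were tested and 0 were called by edgeR, with 0 at an unadjusted p under 0.05, and 16 had a negative log2 fold change. Ctcf, the insulator protein of the clusters, was at 18.5 ± 1.42 FPKM in WT and 16.8 ± 0.533 in 16p11.2+/- mice (SD, n = 4 each), with a log2 fold change of -0.16 (standard error 0.08, edgeR unadjusted p = 0.0598). Rad21, a cohesin subunit, had a log2 fold change of -0.09, and Smchd1, a chromatin protein that represses clustered protocadherin promoters, of 0.03. In 1 of the 22 regulators the FPKM did not overlap between groups, against 2.83% of all tested genes. This was Pds5a, a cohesin-associated factor (named after its values were seen), at 4.75 to 4.91 in WT and 4.33 to 4.72 in 16p11.2+/- mice, with a log2 fold change of -0.14 (edgeR unadjusted p = 0.0769, adjusted p = 0.859, exact permutation p = 0.0286, the smallest possible).

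Of 27 genes for binding partners, proteolytic processing and signalling of clustered protocadherins, such as Ret, Adam10, Ptk2b and the WAVE complex, 27 were tested, 0 were called by edgeR and 0 had an unadjusted p under 0.05. The median log2 fold change of these 27 was -0.07, with 17 negative. Protocadherins outside the clusters were also compared, and of 12 genes 11 were tested, 0 were called by edgeR, 0 had an unadjusted p under 0.05 and 9 were positive, with a median log2 fold change of 0.22. Pcdh9, the most abundant of them, was at 22.4 ± 4.46 FPKM in WT and 26.9 ± 5.03 in 16p11.2+/- mice (SD, n = 4 each), with a log2 fold change of 0.25 (standard error 0.17). Pcdh10 was at 14.2 ± 0.687 and 16.3 ± 1.85 FPKM, with a log2 fold change of 0.17 (standard error 0.10).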

How the data were processed

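The authors filtered the paired-end reads, mapped them with Hisat2 2.1.0 and deposited a raw count per gene and mouse from Htseq-count. The submitters' processing notes name Bowtie 0.12.2 and the builds mm8 and mm9 instead. The annotation, counting mode and strand setting are not given in the sources used here. The authors also deposited FPKM, which equals the count per exon length and library total; these lengths equal GENCODE M21 lengths in 97.6% of the genes compared and in all 58 members. The deposited comparison table (group signals, fold changes, p-values) and the summary of FPKM in bins were not used, and 0 sample columns were left unmapped.

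The count test was edgeR 4.0.16 (R 4.3.3, TMM scaling, filterByExpr with minimum count 10 and minimum total 15, quasi-likelihood test, Benjamini-Hochberg over all tested genes, threshold 0.05), on all 8 mice without covariates. Standard errors came from the fold change and its F value. Single genes were compared by exact permutation of FPKM over the 70 assignments of mice. Alternatives were DESeq2 1.42.0, limma 3.58.1 (voom, and trend on log2 FPKM with pseudocounts of 1 and 0.1), other scalings and filters, marker scores as covariates and each mouse left out. The medium spiny neuron covariate and the fit without 2 mice were added after seeing the data. The code was tested on simulated data.

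Members and lists were chosen with earlier results of these data known. Genes named were the 3 highest of each kind, the 5 C-type genes, members with p under 0.05 or no overlap, and Ctcf, Rad21, Smchd1, Pcdh9 and Pcdh10. Pcdhga5, Pcdhga11, Pcdhb1, Pcdhb12, Pcdha4, Pcdhga10, both Pcdha11 rows, Pcdhb6, Pcdhb7, Pcdhb8, Pcdhgb8, the genes with 1 mouse far from its group and Pds5a were named outside this rule.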

Additional observations from a re-analysis of the deposited data

Results flagged for a closer look

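In 8 of 126 groups of 4 mice, 1 mouse lay far from the other 3 (gap to the nearest mouse over the range of the group, above the critical value of Dixon's test). Chance flags about 1 in 20 groups. In DF-1018 the gap was 0.847 of the range for Pcdhb6 (4.32 FPKM against 0.798 to 1.34), 0.925 for Pcdhb7 (5.17 against 1.90 to 2.14) and 0.920 for Pcdhgb8 (3.21 against 0.932 to 1.11). In WT-1015 it was 0.831 for Pcdha1 (0.309 FPKM against 0.116 to 0.148), 0.870 for Pcdhb8 (2.83 against 1.35 to 1.54), 0.890 for Pcdhb16 (1.53 against 1.07 to 1.12) and 0.847 for Pcdhgb5, where this mouse was the lowest (1.07 against 1.19 to 1.21). In DF-1062 the gap was 0.903 for Pcdhgc4 (5.85 FPKM against 2.05 to 2.42).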

How the results depend on the processing

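The count of members called was 0 in every fit, and so were those of the regulators, partners and non-clustered protocadherins, with each mouse left out in turn included. The count of members with an unadjusted p under 0.05 (3) was 5 with the thalamus score as covariate, 1 without DF-1037 and DF-1062, and 0 to 5 with 1 mouse left out. Over all tested genes this count (790) was 763 with the thalamus score, 770 without DF-1037 and DF-1062, and 461 to 1530 with 1 mouse left out. The C-type difference of 0.0029 was 0.32 as the median of its members, and with 1 mouse left out the summed differences were -0.038 to 0.18 for alpha, -0.022 to 0.19 for beta, -0.25 to 0.011 for gamma A, -0.28 to 0.063 for gamma B and -0.054 to 0.053 for C-type genes. Of the 22 members whose fold changes were followed, 6 (Pcdha6, Pcdhac1, Pcdhac2, Pcdhb17, Pcdhgb2 and Pcdhgc5) kept their sign in all fits. The log2 fold changes that turned sign were as follows, and the cause was not tested. With the medium spiny neuron score as covariate they were Pcdha12 0.014, Pcdha5 -0.17, Pcdhb9 -0.055, Pcdhga6 0.014, Pcdhga7 0.046, Pcdhga12 0.052, Pcdhgb6 0.18, Pcdhgb7 0.15 and Pcdhb8 0.25. Without DF-1037 and DF-1062 they were Pcdha12 0.022, Pcdha5 -0.26, Pcdha9 -0.068, Pcdhb9 -0.090, Pcdhga6 0.032, Pcdhga7 0.12, Pcdhga12 0.035, Pcdhgb6 0.24, Pcdhgb7 0.14, Pcdhgc4 -0.0018 and Pcdhb8 0.33. With the thalamus score they were Pcdhga6 0.059, Pcdhga12 0.096, Pcdhgb6 0.16, Pcdhgb7 0.22, Pcdhb7 -0.074, Pcdhb8 0.067 and Pcdhgb8 -0.056, and with the cortical neuron score Pcdhga12 0.053, Pcdhb6 -0.31, Pcdhb7 -0.15 and Pcdhgb8 -0.22. Pcdhga12 was 0.00034 with DESeq2, 0.00018 with RLE factors, 0.015 with library totals, 0.014 with limma-voom, and 0.020 and 0.031 with limma-trend at pseudocounts of 1 and 0.1. Pcdhgb7 was 0.011 with library totals, 0.0055 with limma-voom, and 0.010 and 0.020 with limma-trend. Pcdhb6 was -0.094 with limma-voom and -0.043 with limma-trend at 0.1, and Pcdhb7 was -0.015 with limma-voom. With 1 mouse left out the ranges were Pcdha12 -0.28 to 0.13, Pcdha5 -0.046 to 0.28, Pcdhb20 -0.038 to 0.23, Pcdhb9 -0.0037 to 0.17, Pcdhga7 -0.36 to 0.057, Pcdhga12 -0.12 to 0.12, Pcdhgb6 -0.15 to 0.12, Pcdhgb7 -0.16 to 0.11, Pcdhgc3 -0.031 to 0.13, Pcdhb6 -0.60 to 0.46, Pcdhb7 -0.39 to 0.25, Pcdhb8 -0.44 to 0.25 and Pcdhgb8 -0.51 to 0.34. Without DF-1018 Pcdhb6, Pcdhb7 and Pcdhgb8 were at the low ends of these ranges.

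No paired analysis was possible because no replicate number occurs in both groups. No batch is given. Depth limits the alpha genes most, with mean counts of 2.25 to 80.9 per mouse, and shared exons leave the division of reads among alpha and gamma genes unknown.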

Other observations

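Of the 12 protocadherins outside the clusters, 7 were highest in DF-1062, as Pcdhgc4 was, and the 3 named here were chosen after their values were seen. Pcdh19, an adhesion protein linked to epilepsy, was at 9.37 FPKM in this mouse and 2.53 to 4.44 in the other 7. Pcdh8 was at 10.1 FPKM against 2.49 to 5.18, and Pcdh18 at 3.60 against 1.03 to 1.47. Summed medium spiny neuron markers were lowest in the same mouse, at 935 CPM, and the part of this in the levels was not tested.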
